A study of Drosophila melanogaster with 3 samples.

Results

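The odorant and gustatory receptor genes of Drosophila melanogaster were examined in a chromatin immunoprecipitation and sequencing (ChIP-seq) data set of Zen, a homeodomain transcription factor of the early embryo. They were taken as the protein-coding genes whose symbol begins with Or or Gr, followed by digits and a letter. This gave 119 of 13945 protein-coding genes of the Ensembl annotation on the dm6 genome, 59 odorant and 60 gustatory receptor genes. The material was a transgenic fly line that stably carries zen with GFP at its C terminus, and the immunoprecipitation was made with an antibody against GFP, although the antibody field of the labels names zen. Whole embryos of both sexes, 0 to 4 h old, gave 3 biological replicates, which form a single group, and their chromatin was sheared by sonication to a size of 200 to 800 bp. No library without the tagged protein and no library of another age was analysed here, so Zen binding and recovery of open chromatin cannot be told apart at any gene. Whole embryos also mix all cells of the embryo, and the number of embryos per replicate is not given in the sources used here.

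Odorant receptors are membrane proteins of olfactory neurons. Most adult olfactory neurons express a single tuning receptor together with the co-receptor Orco, and the pair forms a cation channel opened by volatile compounds. Gustatory receptors are related proteins that detect sugars, bitter compounds, carbon dioxide, contact pheromones and, for some members, warmth or light. Both families are small genes scattered over the genome, partly in tandem arrays, and they are known mainly from differentiated sensory neurons, which arise later in development than the early embryo that Zen patterns. Zen is best known for specifying the amnioserosa on the dorsal side, and homeodomain proteins bind short sites with a TAAT core.

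The letters beneath 6 of the summits are shown because they carry the contrast described afterwards, between summits that lie at the start of a neighbouring gene and summits that lie nearest to a receptor. All are on the plus strand of dm6, from the RefSeq genome, and capitals mark TAATTA, a homeodomain core. The stretches reach up to 100 bp on either side of the summit, trimmed where an exon begins. The window of the strongest summit beside Or85f spans chr3R:9401230-9401430 and lies at the start of RpL34b. The second spans chr3R:9400054-9400236, upstream of CG34117, between that gene and RpL34b. The third, at chr3L:3896774-3896899, lies between Gr63a and Lamtor4. The last 3 windows lie nearest to a receptor, at chr3R:16497480-16497680 for Gr89a, chr3R:27547498-27547698 for Gr98d and chr3L:10271743-10271943 for Or67d.
Or85f (nearest start RpL34b): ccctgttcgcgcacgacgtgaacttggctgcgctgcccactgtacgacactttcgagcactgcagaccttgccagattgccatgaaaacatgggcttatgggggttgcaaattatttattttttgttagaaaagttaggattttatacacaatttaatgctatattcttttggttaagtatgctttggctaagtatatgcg
Or85f (nearest start CG34117): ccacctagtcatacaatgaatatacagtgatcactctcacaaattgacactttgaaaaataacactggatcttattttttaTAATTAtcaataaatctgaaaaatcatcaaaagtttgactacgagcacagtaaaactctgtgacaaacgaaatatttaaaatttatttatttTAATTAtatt
Gr63a (nearest start Lamtor4): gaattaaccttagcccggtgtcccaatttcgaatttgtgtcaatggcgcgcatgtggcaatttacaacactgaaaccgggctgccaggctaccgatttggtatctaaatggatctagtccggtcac
Gr89a (nearest start its own): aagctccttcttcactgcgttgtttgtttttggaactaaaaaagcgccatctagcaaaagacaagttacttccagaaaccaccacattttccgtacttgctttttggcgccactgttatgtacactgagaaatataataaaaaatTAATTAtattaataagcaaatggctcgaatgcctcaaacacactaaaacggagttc
Gr98d (nearest start its own): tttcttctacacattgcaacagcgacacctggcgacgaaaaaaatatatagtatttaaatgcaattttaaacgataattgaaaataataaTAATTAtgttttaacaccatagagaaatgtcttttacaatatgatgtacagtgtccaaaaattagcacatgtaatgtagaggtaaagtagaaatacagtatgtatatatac
Or67d (nearest start its own): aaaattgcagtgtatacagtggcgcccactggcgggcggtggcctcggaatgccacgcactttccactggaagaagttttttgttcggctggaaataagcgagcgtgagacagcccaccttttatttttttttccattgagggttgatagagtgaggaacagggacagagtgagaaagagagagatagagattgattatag
The Or85f window at RpL34b and the windows of Gr63a and Or67d held no TAATTA. The Or85f window at CG34117 held 2 matches, and those of Gr89a and Gr98d held 1 each.

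A summit is the position of highest signal within a peak. The set that the authors kept at a threshold on the irreproducible discovery rate (IDR) held 7405 summits, and a gene was counted as having a summit when one lay in its body or within 2000 bp on either side, a region named here its territory. Few receptor genes had one. IDR summits lay in the territories of 16 receptor genes (13.4% of 119), against 46.8% of all protein-coding genes. They were 6 odorant receptor genes (10.2% of 59) and 10 gustatory receptor genes (16.7% of 60). The order of the families turned when a summit had to be shared by a pair of libraries, with 6, 6 and 6 odorant and 4, 4 and 5 gustatory receptor genes without replicates 1, 2 and 3. In each library's own 7405 strongest summits, 15 receptor genes were counted in replicate 1, 15 in replicate 2 and 15 in replicate 3, which is 12.6% of the receptor genes each time, against 45.4%, 44.8% and 48.3% of all protein-coding genes. The means were 15 ± 0 receptor genes, and 46.2% ± 1.87 of all protein-coding genes (SD, n = 3). The gap was wider than the spread between libraries. With 1 group and members chosen with earlier results known, no chance test was made.

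**Figure D1:**
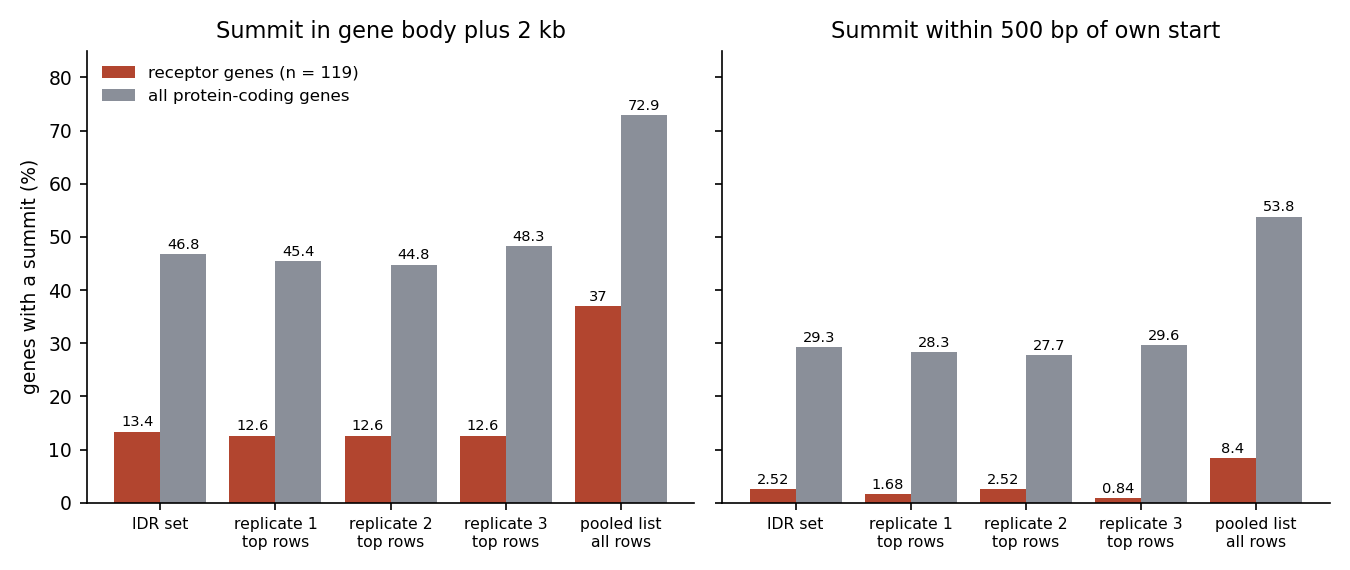
Percent of receptor genes (red, n = 119) and of all protein-coding genes (grey) with a summit in the gene body plus 2000 bp (left) or within 500 bp of their own start (right), in the IDR set, the 7405 strongest summits of each replicate and all rows of the pooled list. The receptor bar is the lower one in all 5 lists of both panels, from 12.6% to 37.0% on the left and from 0.84% to 8.4% on the right.

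The equal counts of 15 came from partly different genes. In all 3 libraries 9 receptor genes were counted (7.56%), against 37.7% of all protein-coding genes. They were Gr89a, Gr94a, Gr97a, Or42a, Or67c, Or67d, Or85f, Or88a and Or9a, and all of them were in the IDR count. Over the libraries together 21 receptor genes were counted at least once (17.6%), against 54.8% of all protein-coding genes. Of the 16 receptor genes with an IDR summit, Gr5a and Gr63a were missing from the strongest summits of replicate 1, Gr98c and Gr98d from those of replicate 2, and Gr63a, Gr64d, Gr64e and Gr64f from those of replicate 3. In the other direction, Gr85a was counted in replicate 1 alone, Or22b in replicate 2 alone, and Gr28a, Gr32a and Or46a in replicate 3 alone. When a summit had to be shared within 100 bp by the strongest summits of a pair of libraries, 10 receptor genes were left without replicate 1 (8.4%, against 36.9% of all genes), 10 without replicate 2 (8.4%, against 38.6%) and 11 without replicate 3 (9.24%, against 37.1%).

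Relative to all genes, receptor genes had fewer summits still close to their own start. The ratio of the receptor share to that of all genes was 0.287 over the territory and 0.086 within 500 bp of a start. Within 500 bp of an annotated start of their own, 3 receptor genes had an IDR summit (2.52%), against 29.3% of all protein-coding genes. They were Gr63a, Gr64f and Or42a. The libraries gave 2, 3 and 1 such receptor genes, a mean of 1.68% ± 0.84 of the receptors, against 28.5% ± 0.971 of all protein-coding genes (SD, n = 3). Within 1000 bp it was 5 receptor genes (4.2%), against 33.1%. The gene body itself held an IDR summit in 4 receptor genes (3.36%), against 14.7%. Measured without any territory, the median distance from a receptor start to the nearest IDR summit was 12459 bp, against 3963 bp for all protein-coding genes. The medians in replicates 1, 2 and 3 were 13690, 13724 and 10751 bp for receptors, against 4250, 4386 and 3630 bp for all genes. Odorant receptors had a median of 13096 bp and gustatory receptors one of 8415 bp. The lower and upper quartiles of the receptor distances were 5350.5 and 38627 bp. The most distant was Or35a, an odorant receptor of coeloconic sensilla, at 85912 bp.

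**Figure D2:**
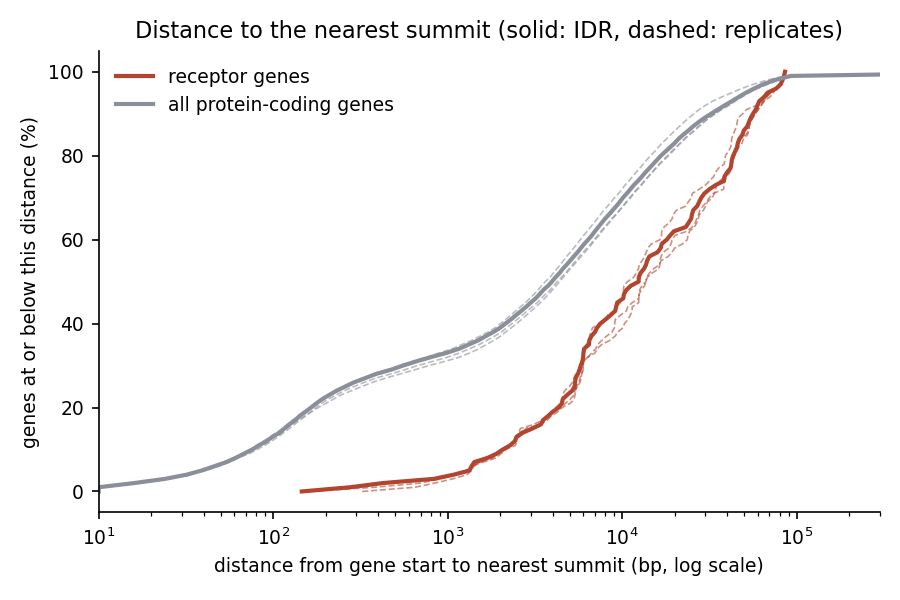
Cumulative percent of receptor genes (red) and of all protein-coding genes (grey) by the distance from the gene start to the nearest summit in bp (log axis, distances under 10 bp drawn at 10 bp), for the IDR set (solid) and the 7405 strongest summits of each replicate (dashed). The receptor curves lie to the right of those for all genes over most of the range, with medians of 12459 and 3963 bp in the IDR set.

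The 16 receptor genes shared 16 different summits in 19 pairs of a gene and a summit, because some genes held several summits and some summits lay in several territories. Most of these summits were nearer to the start of some other gene. In 14 of the 19 pairs (73.7%) another gene's start was closer than the receptor's, against 51.5% of the 11248 such pairs of all protein-coding genes. In the pairs of Gr98c, Gr64d and Gr64e, that closer start belonged to another receptor of the same array. The share in replicates 1, 2 and 3 was 66.7%, 73.7% and 77.8% for receptors, against 51.0%, 50.7% and 51.7% for all genes. The receptor share was the higher one in each library, while its own values spread over more than 10 percentage points on 18 or 19 pairs. Counted once each, 5 summits were nearest to a receptor start, at 146 to 1546 bp, and 11 were nearest to the start of a gene that is no receptor, at 26 to 960 bp. For these 11 the median distance was 158 bp to the other gene and 1926 bp to the receptor, and 6 of them lay within 200 bp of the other start.

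**Figure D3:**
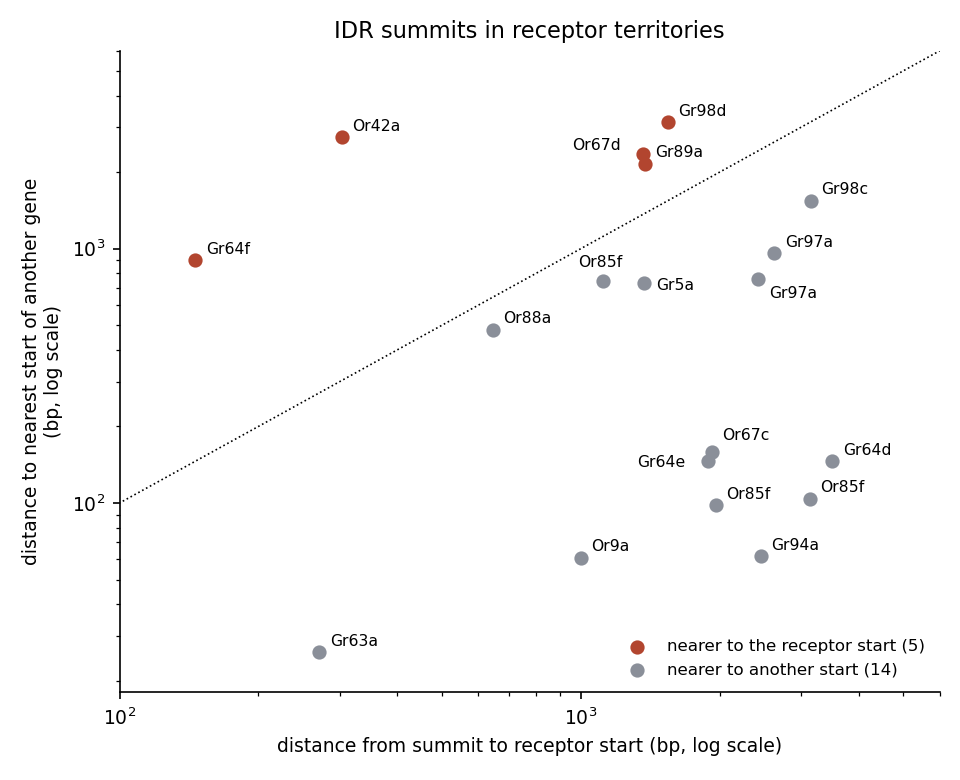
Distance from each IDR summit in a receptor territory to the receptor's start (horizontal, bp, log axis) and to the nearest start of any other gene (vertical, bp, log axis), 1 point per pair of gene and summit. The 14 grey points below the dotted line of equal distance are nearer to another gene, and the 5 red points above it are nearer to the receptor.

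Among the odorant receptors, Or85f (3R, 9398190 to 9399551, plus strand) held 3 IDR summits, the most of any receptor gene. The strongest, in the interval from 9401151 to 9401557, ranked 644 among the 7405 IDR summits by the authors' signal value, and its counterparts ranked 749, 1171 and 418 in replicates 1, 2 and 3. It lay 3140 bp downstream of the Or85f start and 104 bp from the start of RpL34b, which encodes a ribosomal protein. The next, in the interval from 9400014 to 9400267, ranked 1283 in the IDR set and 1322, 1572 and 1148 in the replicates. That summit lay 1961 bp from the Or85f start and 98 bp from CG34117, for which no function is given here. The weakest ranked 3073 in the IDR set and 2184, 2841 and 5636 in the replicates, and fell in the coding sequence of Or85f, 1119 bp from its start and 744 bp from that of CG34117. All 3 summits of Or85f were therefore nearer to a neighbour, and all were present in each library.

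Or88a and Or67d belong to the receptors for fly pheromones and were the 2 of 8 on that list with an IDR summit, against 46.8% of all protein-coding genes. Or88a (3R, 14109445 to 14110823, plus strand), a receptor for fly-derived fatty acid methyl esters, had a summit 644 bp upstream of its start that ranked 3621 in the IDR set and 3932, 4498 and 3215 in replicates 1, 2 and 3. The start of CG12402 was nearer, at 480 bp. Or67d (3L, 10273204 to 10274624, plus strand), a receptor for the male pheromone cis-vaccenyl acetate, had a summit 1361 bp upstream that ranked 5830 in the IDR set and 6595, 5858 and 5061 in the replicates. No other gene start lay closer than 2361 bp to it. Or67d was the nearest gene start of 3 IDR summits in all, of which this was the only one in its territory. Both summits were among the strongest 7405 of every library.

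Or9a (X, 10458186 to 10459676, minus strand) had a summit 999 bp upstream of its start and 61 bp from the start of Neb-cGP, with rank 3778 in the IDR set and 3000, 5778 and 4960 in the replicates. Or67c (3L, 10243320 to 10244706, minus strand), one of the odorant receptors of the larva, had a summit 1926 bp upstream and 158 bp from the noncoding gene lncRNA:CR44539, with rank 4162 in the IDR set and 4686, 5650 and 3608 in the replicates. Or42a (2R, 5791441 to 5792967, minus strand) is a larval receptor for fruit esters. Its summit lay in its own coding sequence, 303 bp from its start and 2749 bp from any other, and ranked 5366 in the IDR set and 5601, 4922 and 7092 in the replicates. Or42a was the only odorant receptor with an IDR summit within 500 bp of its start. Of the 26 larval odorant receptors listed, Or42a and Or67c were the 2 with an IDR summit, against 46.8% of all protein-coding genes.

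Of the 9 sugar receptors, 4 had an IDR summit, a share close to the 46.8% of all protein-coding genes. Among the strongest summits of replicates 1, 2 and 3 it was 3, 4 and 1, against 45.4%, 44.8% and 48.3% of all genes. The 4 with an IDR summit rested on 2 summits. Gr5a (X, 5680617 to 5682488, plus strand), a trehalose receptor, had a summit 1371 bp upstream. It lay in an intron of Tre1, 731 bp from the start of that gene, which encodes a G protein-coupled receptor needed for germ cell migration. It ranked 4640 in the IDR set, and 13436, 3001 and 3180 in replicates 1, 2 and 3, so it was weak in replicate 1. The other summit, in the interval from 4035445 to 4035860 on 3L, lay in the territories of Gr64d, Gr64e and Gr64f together. It ranked 5812 in the IDR set and 5934, 5498 and 8689 in the replicates, and was thus outside the strongest 7405 of replicate 3.

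That summit was the closest to a receptor start, 146 bp upstream of Gr64f, which encodes a co-receptor required for the response to most sugars. It lay in the annotated 3′ untranslated region of Gr64d and Gr64e, 1886 bp from the nearest start of Gr64e, a receptor for glycerol, and 3512 bp from that of Gr64d. The remaining sugar receptors had no IDR summit in their territory. The nearest one lay 8884 bp from the start of Gr64a, 7048 bp from that of Gr64b, 5389 bp from that of Gr64c, 3725 bp from that of Gr61a and 2853 bp from that of the fructose receptor Gr43a. The Gr64 array was thus marked beside its last gene, by a single summit at low rank.

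Carbon dioxide is detected by Gr63a and Gr21a together. Gr63a (3L, 3894999 to 3896603, minus strand) had a summit 271 bp upstream of its start, but 26 bp from the start of Lamtor4, a subunit of the Ragulator complex. It was the weakest of the receptor summits, at rank 6840 in the IDR set and 8548, 6651 and 8244 in replicates 1, 2 and 3, so only replicate 2 had it among its strongest 7405. Gr21a had no summit in its territory in any list, and the nearest IDR summit lay 38495 bp from its start. The partners of the carbon dioxide receptor therefore differed in whether a summit lay beside them, and the summit beside Gr63a was at a neighbour.

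Of the 11 bitter receptors, Gr89a alone had an IDR summit, against 46.8% of all protein-coding genes. Gr89a (3R, 16497817 to 16498959, minus strand) is expressed in bitter-sensing neurons, and its summit ranked 1411 in the IDR set and 1955, 2305 and 1113 in the replicates. That was the highest rank of any summit nearest to a receptor. The summit lay just beyond the 3′ end of the gene, 1379 bp from its start and 2158 bp from that of Cad89D, a cadherin gene. In all rows of the pooled list Gr39a, Gr59c, Gr66a and Gr93a joined it, which gave 5 of 11, against 72.9% of all protein-coding genes.

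The other gustatory receptors with an IDR summit have no role given here. Gr97a (3R, 26965124 to 26966485, minus strand) held 2 summits, in overlapping intervals within an intron of the tetraspanin gene Tsp97E. The stronger, at rank 957, lay 2628 bp from the Gr97a start and 960 bp from that of Tsp97E. It had a counterpart in replicate 3, at rank 551, and none within 100 bp in replicates 1 and 2, where the nearest summits were 105 and 145 bp away. The weaker, at rank 2141, lay 2427 bp from the Gr97a start and 759 bp from that of Tsp97E, and ranked 1140, 2104 and 2686 in replicates 1, 2 and 3. Gr94a (3R, 23051689 to 23052903, plus strand) had a summit 2455 bp from its start and 62 bp from that of p53, the fly homologue of the tumour suppressor, in an exon of asRNA:CR46089. It ranked 3566 in the IDR set and 3633, 3657 and 4234 in the replicates. Gr98c and Gr98d (3R, 27544443 to 27545836 and 27546052 to 27547462, both on the plus strand) shared a summit just downstream of Gr98d, 1546 bp from the Gr98d start and 3155 bp from that of Gr98c. It ranked 5622 in the IDR set, and 4502, 12375 and 6444 in replicates 1, 2 and 3, weakest in replicate 2.

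**Figure D4:**
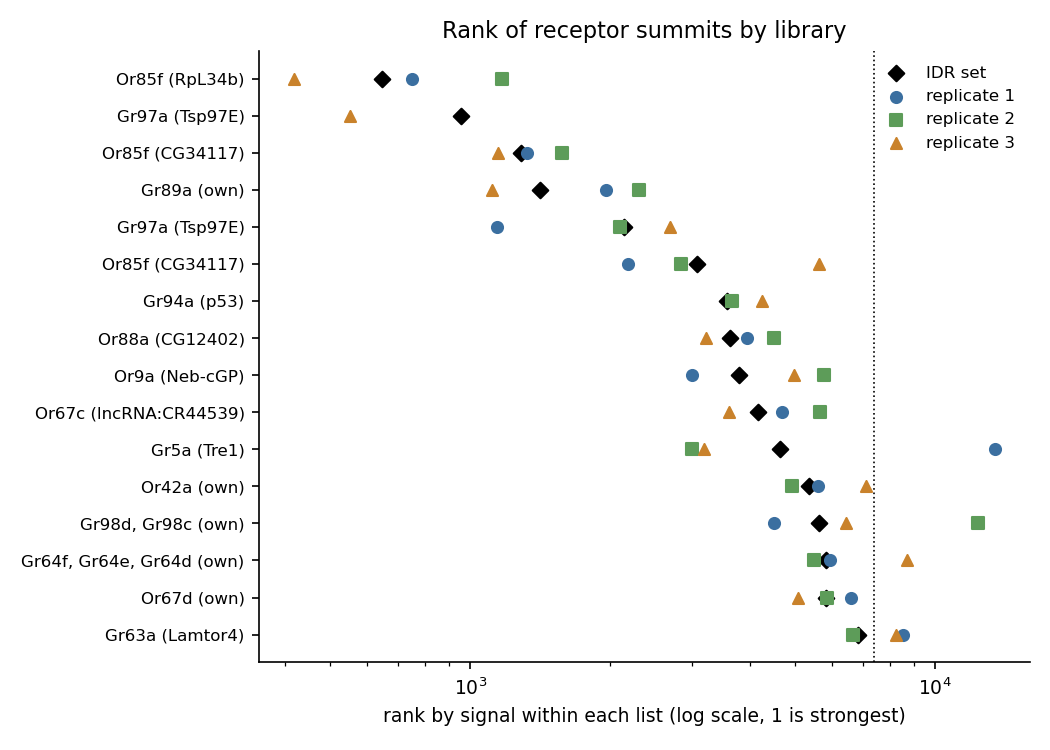
Rank by the authors' signal value (log axis, 1 is the strongest) of the 16 IDR summits in receptor territories, in the IDR set (black) and in each replicate where a summit lay within 100 bp. The gene with the nearest start is in brackets, and the dotted line marks rank 7405. The summit of Gr97a at rank 957 has a point in replicate 3 alone, and Gr5a, Gr98d, Gr64f and Gr63a cross the line in some replicates.

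The summits in receptor territories had a median rank close to that of all IDR summits. It was 3699.5, over a range of 644 to 6840, against 3703 for all IDR summits. Among the strongest 3702 were 8 of the 16. The 5 nearest to a receptor start ranked 1411 (Gr89a), 5366 (Or42a), 5622 (Gr98d), 5812 (Gr64f) and 5830 (Or67d). The 11 nearest to another gene ranked from 644 to 6840. Summits among the strongest 3702 lay in the territories of 5 receptor genes (4.2%), against 28.5% of all protein-coding genes. The ratio of these shares was 0.148, against 0.287 for the full IDR set. Of the 16 summits, 13, 14 and 14 had a counterpart within 100 bp among the strongest summits of replicates 1, 2 and 3 (81.2%, 87.5% and 87.5%), against 84.8%, 78.8% and 79.8% of all IDR summits. All 3 libraries supported 11 of them, and 15 when all rows of each library were used. By position 9 of the 16 were intergenic, 3 intronic, 2 in coding sequence, 1 in a 3′ untranslated region and 1 in another exon, and 3 lay inside a receptor gene.

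Counted the other way, 7 receptor genes had the start nearest to some IDR summit at any distance (5.88%), against 28.8% of all protein-coding genes. Replicates 1, 2 and 3 gave 8, 7 and 6 (6.72%, 5.88% and 5.04%), against 28%, 27.5% and 29.8% of all genes. Of the 7 in the IDR set, 5 had the summit in their territory, namely Gr64f, Gr89a, Gr98d, Or42a and Or67d. The other 2 were Gr93a, which takes part in caffeine detection, and Gr93d, each nearest to 2 summits, the closer of which lay 3470 bp from Gr93a and 2531 bp from Gr93d.

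Weaker peaks brought in more receptors. The pooled list, which contains the IDR set as its strongest part, held 30000 rows and placed a summit in 44 receptor territories (37.0%), against 72.9% of all protein-coding genes, 19 of them odorant and 25 gustatory. Replicates 1, 2 and 3 gave 45, 44 and 62 receptor genes with all rows (37.8%, 37.0% and 52.1%), against 72.3%, 72.8% and 76.4% of all genes. Replicate 3 thus stood above the others for receptors, and the mean of 50.3 ± 10.1 (SD, n = 3) rests on that library. In the rows of replicate 3 alone 15 receptor genes had a summit (12.6%), against 4.42% of all protein-coding genes. They were Gr10b, Gr28b, Gr32a, Gr39b, Gr59d, Gr64a, Gr77a, Gr98b, Gr9a, Or59a, Or65a, Or65b, Or82a, Or85d and Or98b. Replicate 1 alone had 2, Gr61a and Or85a (1.68%, against 1.38%), and replicate 2 alone had 1, Or43a (0.84%, against 1.7%). All 3 libraries shared 37 receptor genes (31.1%, against 66.6%), and 52 of the 119 had no summit in any row of any list (43.7%, against 18.6%).

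The 66 different pooled summits in receptor territories had a median rank of 13103 and formed 76 pairs with 44 genes. In 46 of these pairs (60.5%) another gene was nearer, against 49.6% for all protein-coding genes, so the excess over other genes was smaller than in the IDR set. A receptor start was the nearest one for 29 of the 66 summits. At any distance, 27 receptor genes (22.7%) were nearest to a pooled summit, against 57% of all protein-coding genes. Coding sequence held 13 of the 66 (19.7%). In replicates 1, 2 and 3, 27.0%, 21.5% and 20.2% of all summits in receptor territories fell in coding sequence, against 7.54%, 8.36% and 7.82% of all summits. These shares were not adjusted for the amount of coding sequence in receptor territories. The median ranks of these receptor summits were 17509, 15936 and 17958.

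The 5 further members with the strongest pooled summits were Gr93a, Gr85a, Or46a, Or22b and Or71a, none of them in the IDR count. Gr93a ranked 9168 with a summit 1971 bp downstream of its start, and its counterparts ranked 9132 in replicate 1 and 7414 in replicate 3. Replicate 2 had none within 100 bp, the nearest summit being 193 bp away. Gr85a ranked 9232 with a summit in its own coding sequence, 826 bp from its start. That summit ranked 6570 in replicate 1 and 18571 in replicate 3. Replicate 2 had none within 100 bp, the nearest being 159 bp away, and its strongest summit in the Gr85a territory ranked 13146. The summit of Or46a, at rank 9650, lay 17 bp from the start of CG18011 and ranked 15679, 10644 and 5873 in replicates 1, 2 and 3. Or22b, expressed beside Or22a in ester-sensing neurons, ranked 9773 with a summit 2719 bp from its start, and 24625, 4481 and 14659 in the replicates. Or71a, a maxillary palp receptor for a phenolic compound, ranked 10168, with a summit 76 bp from the start of Plp, a centrosomal protein gene, and 11112, 13482 and 10676 in the replicates. Gr85a, Or22b and Or46a each owed their place among a library's strongest summits to a single replicate.

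Of the 8 pheromone receptors, Or67d and Or88a have been described. Or47b, a receptor for fly-derived methyl laurate, had a pooled summit at rank 21941, with rows at 25014 in replicate 1 and 27311 in replicate 3. Gr32a, a receptor for contact pheromones and bitter compounds, had 2 rows, both in replicate 3, the stronger at rank 4714. Or65a and Or65b had rows at 21044 and 26181 in replicate 3 alone, and Or65c and Gr68a had no row in any list. Gr28a and Gr28b were listed together under warmth and light, although neither role is given here for Gr28a. Gr28a had a pooled summit at rank 10487, with a row at 17818 in replicate 1 and 2 in replicate 3, the stronger at 5665. Gr28b, which has isoforms for warmth and light, had a single row, at rank 25731 in replicate 3, in the longest territory of any receptor (11422 bp). The next longest without an IDR summit were those of Gr39a (10953 bp, 1 pooled summit) and Gr10a (7956 bp, 2 pooled summits), whose nearest IDR summits lay 13949 and 5987 bp from their starts. The class of longest territories, which held Gr28b and Gr39a, thus had no receptor gene with an IDR summit.

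Receptor genes are short, with a median body of 1444 bp, against 2166 bp for all protein-coding genes, and a median territory of 5444 bp, against 6166 bp. Length and summit share went together among all genes, so shares were set side by side within quartile classes of territory length. In the second class, which held 94 of the receptor genes, 13 had an IDR summit (13.8%), against 43.1% of all genes of that length. It was 1 of 5 in the shortest class (20%, against 29.4%), 2 of 18 in the third (11.1%, against 50.9%) and 0 of 2 in the longest (0.0%, against 64%). The start of a protein-coding gene that is no receptor lay in the territory of 42 receptor genes, of which 7 had an IDR summit (16.7%, against 52.6% of all genes with such a start). Of the 77 without such a start, 9 had one (11.7%, against 28.2%). In receptors nested within another gene it was 2 of 24 (8.33%, against 30.7%) and in the others 14 of 95 (14.7%, against 49.5%). The receptor share was below that of all genes in each of these classes.

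Tandem arrays, runs of receptor genes within 5000 bp of each other, held 50 receptor genes, of which 6 had an IDR summit (12.0%), and 10 of 69 single receptor genes had one (14.5%), against 46.8% of all protein-coding genes. Neighbours in an array can share a summit. The Gr64 array on 3L had 3 of 6 genes with a summit and the Gr98 array on 3R 2 of 3, each from 1 summit, and Or42a accounted for the sixth. The other 15 arrays had none, among them the 5 genes from Gr22e to Gr22a on 2L. By arm, 0 of 27 receptor genes had an IDR summit on 2L, 1 of 28 on 2R, 6 of 22 on 3L, 7 of 28 on 3R and 2 of 14 on X, against 47.1%, 45.8%, 48.7%, 47.4% and 44.3% of all protein-coding genes on these arms. Grouped by chromosome, a grouping chosen after the values were seen, it was 1 of 55 on chromosome 2 (1.82%, against 46.4%) and 13 of 50 on chromosome 3 (26.0%, against 48%). The strongest summits of replicates 1, 2 and 3 marked 1, 2 and 4 receptor genes on chromosome 2 and 13, 11 and 9 on chromosome 3. With all pooled rows the counts were 18 of 55 and 22 of 50. Over all arms together, 45.4%, 44.8% and 48.3% of all protein-coding genes had such a summit in replicates 1, 2 and 3, and 72.9% a pooled one. These shares were not computed by chromosome, so no conclusion is drawn from the library and pooled counts.

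**Figure D5:**
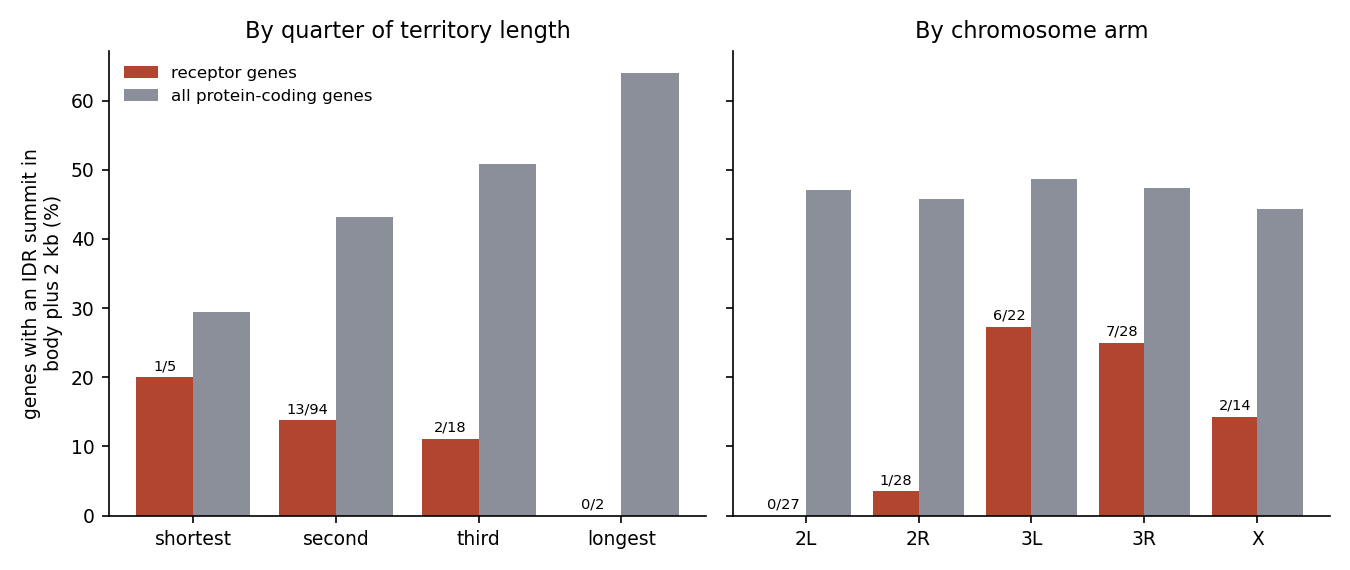
Percent of receptor genes (red, with counts) and of all protein-coding genes (grey) that have an IDR summit in the body plus 2000 bp, by quartile class of territory length over all genes (left) and by chromosome arm (right). Red bars are lower in every class, with 0 of 27 receptor genes on 2L and 7 of 28 on 3R.

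The letters of the homeodomain core were common at receptor genes. TAATTA was sought on both strands, with CAGGTA, the core of the site of the early activator Zelda, and TATCGATA, the DNA replication-related element found at promoters of broadly active genes. None of the 3 motifs contains another. Within 100 bp of the summit, TAATTA was found at 5 of the 16 receptor summits (31.2%), against 18.6% of all IDR summits, and at 12 of 66 pooled receptor summits (18.2%), against 16.0% of all pooled summits. By position it was at 3 of the 5 summits nearest to a receptor (Gr89a, Gr98d and Gr64f) and at 2 of the 11 nearest to another gene (Or85f at CG34117, and Or88a). CAGGTA was found at 1 receptor summit, the one in the Or85f coding sequence (6.25%, against 10.2%), and TATCGATA at 1, the summit of Gr94a beside p53 (6.25%, against 5.23%). With 16 summits, a single summit moves such a share by 6.25 percentage points.

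The promoters differed more. A promoter was taken as the 250 bases before to 50 bases after the outermost start of the gene body, 1 window per gene. Starts of further transcripts inside the body were not scanned. Genes annotated over the same body, Or10a with Gr10a and Gr64b with Gr64c, share a window that is counted for each. TAATTA occurred in 61 of the 119 receptor promoters (51.3%), against 20.4% of all protein-coding promoters. It was in 26 odorant receptor promoters (44.1%) and in 35 gustatory ones (58.3%). Median GC content was 39.7% in receptor promoters, against 38.0% in all. CAGGTA occurred in 9 receptor promoters (7.56%, against 6.24%) and TATCGATA in 1 (0.84%, against 9.36%). Of the 61 receptor genes with TAATTA in the promoter, 1 had an IDR summit within 500 bp of any annotated start of its own. It was Gr64f (1.64%), against 35.4% of all genes with TAATTA in the promoter. Of the 58 without it, 2 had one (3.45%), against 27.8%. The strongest summits of replicates 1, 2 and 3 marked 1, 1 and 0 of the 61 receptor genes, against 34.6%, 33.4% and 35.0% of all genes with the motif. A motif match is a description of the letters, and does not show that a protein binds there.

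The motif was present once in 53 receptor promoters, at 2 places in 6 and at 3 in 2, those of Gr98d and Or30a. A pair of promoters with several matches and no summit in any list is shown, as the 250 bases before the start on the gene's own strand, from the RefSeq genome on dm6, with TAATTA in capitals. Or30a, an odorant receptor of the larva, is on the plus strand at chr2L:9111564-9111813, and Gr22a, of the Gr22 array, is on the minus strand at chr2L:1794918-1795167.
Or30a promoter: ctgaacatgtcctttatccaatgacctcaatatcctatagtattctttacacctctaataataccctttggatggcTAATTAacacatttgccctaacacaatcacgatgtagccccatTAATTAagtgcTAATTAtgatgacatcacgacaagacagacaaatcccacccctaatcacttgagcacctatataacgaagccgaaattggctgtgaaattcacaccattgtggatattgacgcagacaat
Gr22a promoter: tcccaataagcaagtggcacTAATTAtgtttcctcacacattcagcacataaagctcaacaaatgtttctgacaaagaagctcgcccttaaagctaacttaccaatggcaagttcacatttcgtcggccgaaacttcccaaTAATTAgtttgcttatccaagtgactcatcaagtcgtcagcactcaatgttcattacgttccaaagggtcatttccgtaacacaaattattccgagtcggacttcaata

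Sequence that occurs elsewhere in the genome touched few receptor genes. In 110 of the 119 no stretch of 31 bases of the gene body was found elsewhere in dm6. Of the others, Or19a and Or19b on X had 83.8% of their stretches repeated, Or10a and Gr10a 7.9%, Or13a 5.24%, Or22a 1.41% and Or22b 1.05%, with Or22c and Gr39a below that. Neither Or19a nor Or19b had a summit in any list. Whether reads were lost there in mapping was not tested. Or10a and Gr10a are annotated over the same body, so their values are not separate.

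Other genes of the olfactory system give a comparison outside the receptor families, though not one matched for length. Their territories ran from 4786 bp for amos to 72791 bp for pdm3, against a receptor median of 5444 bp. Of 15 such genes, 5 had an IDR summit, against 46.8% of all protein-coding genes, and 14 had a pooled one, against 72.9%. The proneural gene amos, needed for olfactory sensilla, had 1 summit at rank 4537, 176 bp from its start. The midline regulator sim had 6, the strongest at rank 2084, and Xbp1, a regulator of the unfolded protein response, had 4, the strongest at rank 127. The odorant-binding protein gene lush had 1 at rank 7091, and the POU gene pdm3 had 1 at rank 6957. Orco, the co-receptor of the odorant receptors, had no IDR summit and 2 pooled ones, and the nearest IDR summit lay 16611 bp from its start.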

How the data were processed

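The 3 libraries of Zen-GFP embryos were represented by their peak lists on dm6. The authors called peaks per library and on all libraries pooled, with 1 set of control alignments throughout, and deposited an IDR-thresholded set, per the file notes. Peak caller, aligner and versions were not given in the sources used here. The signal value the authors deposited for each peak is a score of their caller against the control, and it was used only to rank summits within a list. The deposited −log10 q-value was not used in a test. No read counts come with the lists, so sequencing depth is unknown and counting intervals cannot be formed. The IDR set was exactly the strongest 7405 of the 30000 pooled rows, so equally many rows were taken per library. Pooled and IDR lists hold the same reads as the libraries and are no further replicates.

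Genes and starts came from Ensembl release 115, on 6 arms, with transposable elements left out. Distances run to the nearest annotated transcript start. All 119 receptor genes matched RefSeq by symbol with the same arm, start and end, and sequences came from that genome. Python 3.11.15, pandas 2.3.3, numpy 2.4.6 and matplotlib 3.10.9 were used, and the placement steps were tested on simulated data. No test was made, and receptors are set beside all protein-coding genes, which include them.

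The members and gene lists were chosen with earlier results of these data known. Promoter matches of TAATTA, TATCGATA, grouping by chromosome and repeated stretches were added after values were seen. Named genes are the receptor genes with an IDR summit and the next 5 by pooled rank. All genes of the carbon dioxide, sugar, warmth and light, and pheromone lists are named too. So are the 3 longest territories without an IDR summit, the neighbours nearer to a summit, and the other olfactory genes with one. Further genes, such as Or35a, Or30a, Gr22a, Or19a, Orco and those found in 1 library alone, were named after their values were seen. Settings varied were the peak set, the territory, the match distance, the starts used and the libraries.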

Additional observations from a re-analysis of the deposited data

How the results depend on the processing

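The receptor share with a summit was below that of all protein-coding genes in 14 of 14 settings, while the count itself followed the setting. The 14 include the main setting, pooled rows and summits shared by pairs of libraries. They draw on the same libraries and are not independent. Against 16 receptor genes (13.4%, against 46.8% of all genes), it was 5 with the strongest 3702 IDR summits (4.2%, against 28.5%). It was 29 with the 14810 strongest pooled rows (24.4%, against 62.4%) and 44 with all pooled rows (37.0%, against 72.9%). The gene body gave 4 (3.36%, against 14.7%). With 1000 bp on either side it was 10 (8.4%, against 40.3%), and with 5000 bp 37 (31.1%, against 60.7%). Within 500 bp of a start it was 3 (2.52%, against 29.3%), and within 1000 bp 5 (4.2%, against 33.1%). Without 1 replicate each, it was 10 to 11 (8.4% to 9.24%, against 36.9% to 38.6%). Among the 83 members that overlap no other gene it was 10 (12.0%), against 42.4% of all such genes, a comparison not among the 14. Taking the strongest summit per interval or any overlap of the interval gave 16 and 17, against 46.8% and 47.9% of all genes. The library mean of 15 became 50.3 with all rows, against 73.8% of all genes, and 3.67 in the gene body, against 14.8%. With the strongest 3702 rows it became 5.33 and with 5000 bp 35.3, and the shares of all genes were not computed there. The percent of pairs nearer to another gene, 73.7 against 51.5 for all genes, became 60.5 with all pooled rows, against 49.6. It became 87.5 with the strongest 3702, which held 8 of the 16 summits, and 82.7 with 5000 bp. Without 1 replicate each it was 66.7 to 76.9. For the strongest 3702, for 5000 bp and without 1 replicate each, the share of all genes was not computed. The median distance of 12459 bp, against 3963 bp for all genes, became 5127 bp with all pooled rows, against 351 bp. With the strongest 3702 it became 23753 bp. It was 15090 to 16906 bp without 1 replicate each, a setting in which a summit had to be shared by both remaining libraries. For the strongest 3702 and without 1 replicate each, the median of all genes was not computed. The causes of the shifts were not tested. No paired analysis was possible because the 3 libraries form a single group.

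Unknown depth, the absence of a library without tagged protein and the use of whole embryos limit all values, and 16 summits limit every statement on subgroups of receptors. The 3 receptor genes of the Gr64 array and the 2 of the Gr98 array share 1 summit each and are not independent.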
